A study of Triticum aestivum with 16 samples.

Results

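Among the probe sets of an Affymetrix wheat array, 11 probe sets from 5 transcript clusters ran in opposite directions over 8 wheat lines, in 6 pairs within a cluster. They were selected on the measured values themselves: a pair had to share a cluster number but not a sub-cluster number, each probe set needed a mean of 5 or more (log2) over 16 arrays and line means that spanned 0.5 or more, and their Pearson r over the 16 arrays had to be -0.8 or lower. These 11 are among 61115 probe sets that are not controls. Since ranges and correlations chose the pairs, the levels below are descriptions and carry no test of their own.

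Bread wheat is a hexaploid that carries an A, a B and a D genome, so most of its genes exist as near-identical homoeologous copies. Lines from a cross also differ in which parental allele they carry at each locus. A probe set is a group of short oligonucleotides read together as a single value, and its sequence comes from a particular transcript. A copy or allele that differs in sequence under the probes can bind them less well, so a probe set may follow a single copy of a gene. The array names probe sets by transcript cluster and then by sub-cluster, the sub-clusters being groups of more similar sequences inside a cluster. A pair of sub-clusters that move oppositely can be read as a switch between homoeologues or between alleles. Probe and genome sequences were not used here, so whether the sub-clusters below stand for homoeologues, alleles or splice forms was not tested.

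The material was flag leaf, the uppermost leaf below the ear and a main source of sugar for the grain, taken 6 to 8 days after anthesis. The plants were recombinant inbred lines from the cultivars Seri M82 and Babax, grown with irrigation in a field in 2007, and the series concerns genotypic differences in the metabolism of water soluble carbohydrates. The groups are the lines SB15, SB33, SB53, SB80, SB138, SB146, SB165 and SB189, each with 2 field replicates and 1 array per replicate, 16 arrays in all. Each line is a single inbred genotype, and the parents themselves were not analysed here. Which parental allele a line carries at any locus is not given in the sources used here. P-values for lines set the differences between line means against the spread between the 2 field replicates within lines.

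Values are log2 levels as deposited, with a floor of 2.25, and array medians lay between 2.35 and 2.39. Over the 19740 probe sets with a mean of 5 or more, r between both arrays of a line was 0.989 to 0.995, and between arrays from separate lines it was 0.957 to 0.984. The 30 probe sets found for green leaf markers spanned 2.25 to 16.57 with a median of 2.59. They hold 1 probe set of the photosystem protein PsbO (LOC543291), at 14.83, 1 of the Calvin cycle enzyme PRK (LOC543283), at 14.95, and 28 of rbcL, the large subunit of Rubisco, from the lowest to the highest value. Both probe sets of the profilin PRO1 (LOC543315), an actin-binding protein searched as an anther and pollen marker, lay high, at 13.37 and 14.31, with line means that spanned 0.27 and 0.16. The part of such cells in the results below was not tested. All 12 probe sets of 7 gliadin and glutenin genes, seed storage proteins of the grain, lay between 2.25 and 2.56. The poly-A spike controls, RNAs added before labelling, had a mean log2 level of 8.82 ± 0.0438 (SD, n = 2) in SB80, the lowest line, and 10.12 ± 0.149 in SB165, the highest, and their part in the results below was not tested.

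The widest opposition lay in cluster Ta.14571, between Ta.14571.1.S1_at and Ta.14571.2.A1_at. On Ta.14571.1.S1_at both arrays of SB33 (9.38 and 9.52) and SB146 (8.97 and 9.64) were high. On the same probe set the other arrays gave 5.46 and 4.92 in SB15, 4.47 and 4.35 in SB53, 4.68 and 3.92 in SB80, 4.76 and 4.33 in SB138, 6.88 and 5.31 in SB165, and 5.64 and 5.31 in SB189. The lines SB33 and SB146 thus stood above all others on every array, with 2.09 between their lowest array and the highest of the other lines. Ta.14571.2.A1_at was the mirror image. It read 3.12 and 3.15 in SB33 and 3.12 and 3.13 in SB146. On Ta.14571.2.A1_at the other arrays gave 7.15 and 6.74 in SB15, 7.18 and 6.72 in SB53, 6.60 and 6.69 in SB80, 6.88 and 6.79 in SB138, 6.57 and 6.85 in SB165, and 6.61 and 5.93 in SB189. Here SB33 and SB146 were the low lines, again with no overlap, and they lay only 0.869 or little more above the floor, so their level may be background and the range of 3.83 between line means is a lower bound. The range of Ta.14571.1.S1_at was 5.14, from 4.30 ± 0.536 (SD, n = 2) in SB80 to 9.45 ± 0.0974 in SB33.

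The pair of Ta.14571 had the lowest r of all, -0.94 over the 16 arrays. Among the 12 arrays of the 6 lines without SB33 and SB146, r was -0.23. Those 2 lines were set apart on the same values. Leaving out the extreme lines narrows the span, so a weaker r follows in part from that choice. The same holds for such values in the other clusters below. The remaining probe set of the cluster is Ta.14571.3.S1_x_at, which is in no opposite pair. It lay between 8.78 and 9.30 on the 16 arrays, its line means spanned 0.31, and its line effect did not pass (limma adjusted p = 0.872). Its level in SB33 (9.05 ± 0.221) and in SB146 (8.94 ± 0.0109) was inside the span of the other lines.

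**Figure D1:**
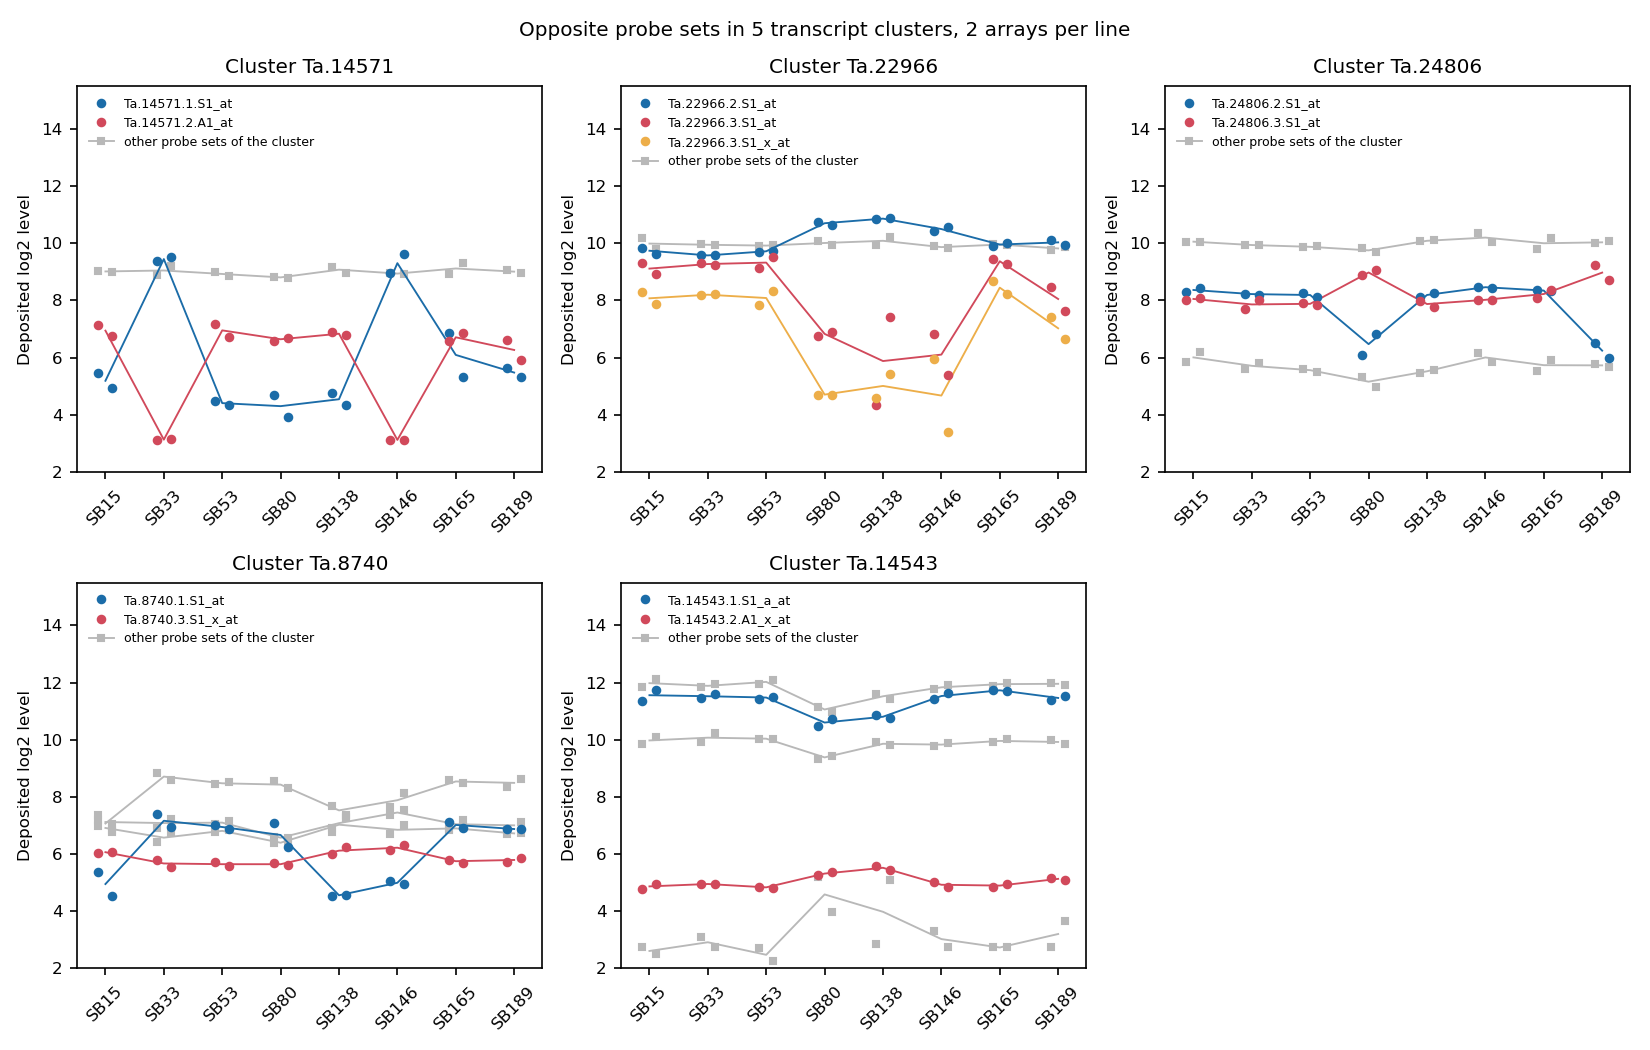
Deposited log2 level (y axis) of every probe set of the 5 clusters in each line (x axis), with 1 point per array, 2 arrays per line, and lines joining the line means. Coloured points are the 11 opposite probe sets and grey squares are the other 10 probe sets of these clusters. In cluster Ta.14571, SB33 and SB146 read 8.97 to 9.64 on one probe set and 3.12 to 3.15 on the other.

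Cluster Ta.22966 held 3 of the 11 probe sets and 2 of the 6 pairs. Ta.22966.2.S1_at was bright, with 10.75 and 10.65 in SB80, 10.85 and 10.88 in SB138, and 10.41 and 10.58 in SB146. The other 10 arrays of Ta.22966.2.S1_at lay between 9.57 and 10.11, the highest of them in SB189, so the 3 lines did not overlap with the other 5. Its range of line means was 1.29, from 9.58 ± 0.00156 in SB33 to 10.86 ± 0.0217 in SB138 (SD, n = 2).

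Ta.22966.3.S1_at was low in the same 3 lines, with 6.77 and 6.89 in SB80, 4.33 and 7.43 in SB138, and 6.82 and 5.40 in SB146. On Ta.22966.3.S1_at the other lines gave 9.30 and 8.93 in SB15, 9.32 and 9.23 in SB33, 9.13 and 9.52 in SB53, 9.46 and 9.28 in SB165, and 8.46 and 7.64 in SB189. SB189 lay in between, its lower array 0.21 above the higher array of SB138. The arrays of SB138 differed widely (SD 2.2), and for this probe set the F over lines did not pass (limma adjusted p = 0.145).

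The other probe set of sub-cluster 3, Ta.22966.3.S1_x_at, followed Ta.22966.3.S1_at with r = 0.93. Both belong to the same sub-cluster and may share probes, so they are not independent readings. Ta.22966.3.S1_x_at gave 4.71 on both arrays of SB80, 4.59 and 5.43 in SB138, and 5.95 and 3.40 in SB146, against 6.65 to 8.69 on the arrays of the other 5 lines. Its line means ranged over 3.77, from 4.67 ± 1.8 in SB146 to 8.45 ± 0.338 in SB165 (SD, n = 2). Its lowest array lay 1.15 above the floor and both SB80 arrays held an identical value, so the low levels may be background. The range may then be a lower bound. Against Ta.22966.2.S1_at, r over the 16 arrays was -0.85 for Ta.22966.3.S1_at and -0.89 for Ta.22966.3.S1_x_at. Among the 10 arrays of SB15, SB33, SB53, SB165 and SB189 it was -0.42 and -0.33. The fourth probe set of the cluster, Ta.22966.1.S1_x_at, lay between 9.77 and 10.22 on all arrays, with line means that spanned 0.27 and an F over lines that did not pass (limma adjusted p = 0.878).

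Cluster Ta.24806 is the only one of the 5 whose opposite probe sets the platform annotation pairs with a gene, LOC606369, a protein-coding locus with no name or role in the tables used. Ta.24806.2.S1_at was low in SB80 (6.10 and 6.84) and in SB189 (6.50 and 5.99). In the other lines it gave 8.31 and 8.42 in SB15, 8.24 and 8.21 in SB33, 8.25 and 8.13 in SB53, 8.11 and 8.27 in SB138, 8.48 and 8.45 in SB146, and 8.36 and 8.33 in SB165. The lines SB80 and SB189 stood at least 1.27 below every other array, and the other 6 lines were nearly level.

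Ta.24806.3.S1_at was high in SB80 (8.89 and 9.06) and SB189 (9.25 and 8.70). Its other arrays lay between 7.69 in SB33 and 8.36 in SB165, with no overlap. The 2 probe sets differed in size of swing, with ranges of line means of 2.22 and 1.12, and r over the 16 arrays was -0.86. Among the 12 arrays of the 6 other lines r was 0.42, where leaving out the extreme lines again narrows the span. Of the 2 other probe sets of LOC606369, the brighter, Ta.24806.1.S1_x_at, lay between 9.68 and 10.34 and the dimmer, Ta.24806.2.S1_a_at, between 4.98 and 6.18. Neither passed the F over lines (limma adjusted p of 0.609 and 0.273), and the dimmer shares sub-cluster 2 with Ta.24806.2.S1_at but followed it only at r = 0.46. SB80 had the lowest line mean on both, 9.75 ± 0.101 and 5.16 ± 0.251 (SD, n = 2), while SB189, at 10.03 ± 0.0489 and 5.73 ± 0.0745, lay inside the span of the other lines. The dimmer, which met the mean and range minimum, had r = -0.33 with Ta.24806.3.S1_at, outside the rule.

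Cluster Ta.8740 combined a wide and a narrow swing. Ta.8740.1.S1_at was low in SB15 (5.36 and 4.54), SB138 (4.55 and 4.58) and SB146 (5.05 and 4.94), and lay between 6.25 and 7.39 on the 10 arrays of SB33, SB53, SB80, SB165 and SB189. Its line means ranged over 2.61, from 4.56 ± 0.0217 in SB138 to 7.17 ± 0.318 in SB33 (SD, n = 2). Ta.8740.3.S1_x_at was higher in the same 3 lines, by much less. It gave 6.05 and 6.08 in SB15, 6.00 and 6.25 in SB138, and 6.14 and 6.31 in SB146, against 5.54 to 5.87 elsewhere. The gap between the sides was 0.13, and the range of 0.58 was just inside the minimum of 0.5. Over the 16 arrays r was -0.83, and among the 10 arrays of the other 5 lines it was 0.44.

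The 3 remaining probe sets of Ta.8740 split by sub-cluster. Ta.8740.1.S1_x_at followed Ta.8740.1.S1_at (r = 0.90) and differed between lines (limma adjusted p = 0.0306), with 7.07 ± 0.412 in SB15 and 8.71 ± 0.17 in SB33 (SD, n = 2). It met the mean and range minimum, but its r with Ta.8740.3.S1_x_at was -0.70, outside the rule. Those of sub-cluster 2, Ta.8740.2.S1_at and Ta.8740.2.S1_x_at, had line means that spanned 0.63 and 0.88, neither passing the F over lines (limma adjusted p of 0.525 and 0.278). Their r with Ta.8740.1.S1_at was -0.51 and -0.39, short of the rule.

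Cluster Ta.14543 was the weakest case. Ta.14543.1.S1_a_at, a bright probe set, was lowest in SB80 (10.49 and 10.71) and SB138 (10.86 and 10.75) and lay between 11.37 and 11.74 on all other arrays. Ta.14543.2.A1_x_at was highest in the same lines, with 5.27 and 5.37 in SB80 and 5.58 and 5.46 in SB138, against 4.78 to 5.17 elsewhere, the highest of these in SB189. Its mean of 5.06 passed the minimum of 5 narrowly, and its r of -0.80 was the value nearest to the threshold. An identical value of this probe set, 4.97, recurred in SB15, SB33 and SB165, as did 4.84 in SB53 and SB146. These levels may be background. Without SB80 and SB138, r over the other 12 arrays was -0.12.

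Of the other probe sets of Ta.14543, both bright ones were lowest in SB80, as Ta.14543.1.S1_a_at was. Ta.14543.1.S1_x_at differed between lines (limma adjusted p = 0.0146) with its lowest line mean in SB80, at 11.06 ± 0.133 (SD, n = 2), and r = 0.90 with Ta.14543.1.S1_a_at. It met the mean and range minimum, but its r with Ta.14543.2.A1_x_at was -0.69, outside the rule. Ta.14543.3.S1_x_at gave 9.38 ± 0.0897 in SB80, but its 9.86 ± 0.0692 in SB138 lay inside the span of the other lines. Its F over lines did not pass (limma adjusted p = 0.119). Ta.14543.2.A1_at, the partner of Ta.14543.2.A1_x_at in sub-cluster 2, had a mean of 3.19, below the minimum. It read 5.20 and 3.98 in SB80 but 2.86 and 5.11 in SB138, and 2.25 to 3.68 elsewhere, and its F over lines did not pass (limma adjusted p = 0.725).

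For each pair the lines were split at the widest gap between neighbouring line means of the difference between both probe sets. The sides thus come from the values that chose the pairs and are descriptions. Between arrays the gap was as small as 0.098, on Ta.14543.2.A1_x_at. Split in this way, the 5 clusters divided the lines in 5 different ways. The side with fewer lines held, in turn, SB33 with SB146, SB80 with SB138 and SB146, SB80 with SB189, SB15 with SB138 and SB146, and SB80 with SB138. SB53 and SB165 were on the side with more lines in every cluster. SB80, SB138 and SB146 were each on the side with fewer lines in 3 of the 5.

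Over the 8 line means r lay between -0.88 and -0.96, which follows from the choice of pairs by r. The difference between field replicates within a line, correlated between both probe sets of a pair over the 8 lines, gave 0.41 for Ta.14543, -0.27 for Ta.14571, 0.061 and -0.26 for Ta.22966, 0.54 for Ta.24806 and 0.44 for Ta.8740, all as descriptions over 8 values. Rank correlations were weaker. Spearman's rho was -0.76 and -0.75 for the pairs of Ta.22966, -0.65 for Ta.14571 and for Ta.8740, -0.56 for Ta.14543 and -0.30 for Ta.24806. None of the 6 pairs, and no other eligible pair, reached a rho of -0.8.

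**Figure D2:**
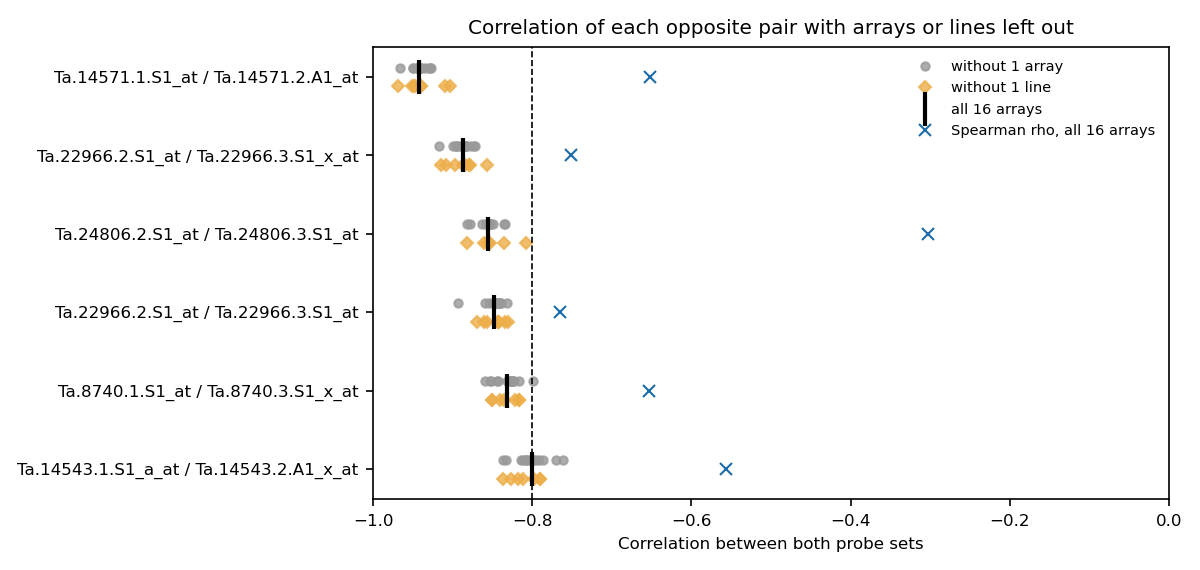
Correlation between both probe sets of each of the 6 pairs (x axis) with all 16 arrays (black bars), without 1 array (grey circles), without 1 line (yellow diamonds) and as Spearman's rho (blue crosses). The dashed line marks -0.8. The pair of Ta.14571 stayed between -0.97 and -0.90, while that of Ta.14543 crossed the dashed line and every rho lay to its right.

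Within pairs, the swings were unequal in size. The ranges of both line-mean profiles were 5.14 and 3.83 in Ta.14571, 2.22 and 1.12 in Ta.24806, 1.29 and 3.49 or 3.77 in Ta.22966, 2.61 and 0.58 in Ta.8740, and 1.13 and 0.68 in Ta.14543. When both members were added on the linear scale, the log2 of the sum ranged over 0.24 between lines in Ta.24806, 0.57 and 0.84 in Ta.22966, 1.06 in Ta.8740, 1.10 in Ta.14543 and 2.55 in Ta.14571. These sums treat the brightness of different probe sets as comparable, which the array does not establish, and a brighter member dominates them.

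Probe set names gave some further features. Of the 11, 7 end in _at, 3 in _x_at and 1 in _a_at. The ending _x_at marks sets with probes that also match other sequences on the array design, so the readings of Ta.22966.3.S1_x_at, Ta.8740.3.S1_x_at and Ta.14543.2.A1_x_at may include other transcripts. Without _x_at and _s_at probe sets, 3 pairs remained, those of Ta.14571 and Ta.24806 and that of Ta.22966.2.S1_at with Ta.22966.3.S1_at. In 2 of the 6 pairs, those of Ta.14571 and Ta.14543, the letter before the number in the last part of the name differed (S against A), as it did in 16.4% of all 1146 pairs open to the rule.

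Opposite pairs were rare against pairs that rise and fall together. Among 31438 probe sets with names of the form Ta.number, 15094 had a mean of 5 or more and 5449 of these also had a range of at least 0.5. They formed 1146 pairs within 545 clusters. The r of these pairs had a median of 0.71 and quartiles of 0.41 and 0.85, and 390 pairs (34%) reached 0.8 or more. The 6 opposite pairs were 0.524% of the 1146. Among the 14841381 pairs of the same 5449 probe sets taken from different clusters, 0.147% had an r of -0.8 or less and 0.567% an r of 0.8 or more. The rule used r, so these shares are counts over overlapping pairs on the same arrays and no test was made of them.

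**Figure D3:**
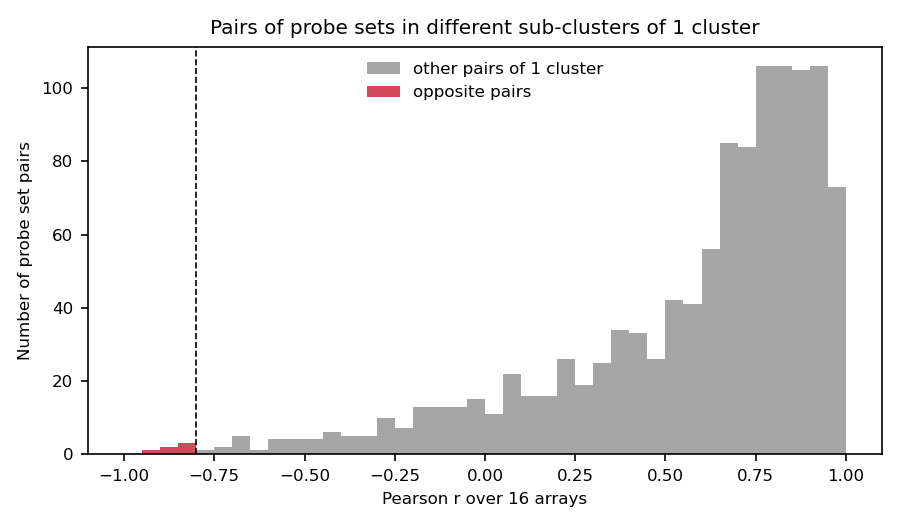
Number of probe set pairs (y axis) by Pearson r over the 16 arrays (x axis), for the 1146 pairs of eligible probe sets in different sub-clusters of a cluster. The 6 opposite pairs (red) lie left of the dashed line at -0.8, and most pairs lie above 0.5.

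The moderated F over the 8 lines called 9 of the 11 probe sets, where 3.5% of all probe sets were called. The rule had required a range of line means, so nothing is read from this count. The 2 not called were Ta.22966.3.S1_at and Ta.8740.3.S1_x_at (limma adjusted p = 0.0738). Of the 10 other probe sets in the same clusters, which the rule did not choose, 2 were called, Ta.8740.1.S1_x_at and Ta.14543.1.S1_x_at, and both share a sub-cluster with a called member. Between the field replicates, with line as a block, limma called 0 of the 11 probe sets, as it called 0% of all. At an unadjusted p under 0.05 there were 2 of the 11, Ta.14543.1.S1_a_at and Ta.8740.1.S1_at, against 4.26% of all probe sets. By the rule, all 11 have a mean of 5 or more. In a limma fit of the 19740 probe sets with such a mean, 2175 lay under 0.05 unadjusted, 1 of the 11 among them.

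Applied to the 8 arrays of field replicate 1 alone, where 1539 pairs were open to it, the rule found 6 pairs. Of them, 4 were among the 6 of the full rule, which used these arrays as well. In the 8 arrays of field replicate 2 the r of the 6 pairs had a median of -0.78. At -0.8 or lower were 2 of them, those of Ta.14571 (-0.98) and of Ta.22966.2.S1_at with Ta.22966.3.S1_x_at (-0.85). In the reverse direction, with 1880 pairs open to it, the rule found 12 pairs, again with 4 of the 6. In field replicate 1 these had a median r of -0.50, and 3 were at -0.8 or lower, those of Ta.14571 (-0.94), of Ta.22966.2.S1_at with Ta.22966.3.S1_x_at (-0.95) and of Ta.8740 (-0.87). The r in the replicate not used for the choice thus spread widely, from -0.98 to 0.12 for the 6 pairs and from -0.95 to 0.49 for the 12. It was below 0 in 5 of the 6 and in 10 of the 12. Between these ends, Ta.24806 had -0.78 in field replicate 2 and Ta.14543 had -0.74 in field replicate 1. Both field replicates hold the same 8 lines, and no share over other pairs was set beside these counts, so they are descriptions.

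The division of SB80 and SB189 from the other lines also occurred in other clusters. The difference between the 2 probe sets of Ta.24806 was compared with 7505 probe sets that passed the same mean and range, a step added after the values were seen. Of those in other clusters, 89 (1.19% of the probe sets compared) followed it with an r of at least 0.9 in size, 76 in the direction of Ta.24806.2.S1_at and 13 in that of Ta.24806.3.S1_at. In all 89, the line means of SB80 and SB189 lay on the same side outside those of the other 6 lines, as the choice by r with such a difference would give, and their ranges had a median of 2.47 and reached 7.66. The poly-A spike mean was lowest in SB80, at 8.82 ± 0.0438 (log2, SD, n = 2). That of SB189, 9.29 ± 0.32, lay beside the 9.32 ± 0.264 of SB33, and the other lines reached up to 10.12. For actin, the 3' minus middle difference, a sign of RNA integrity, was lowest in SB80 (-0.11 ± 0.15), with 0.15 in SB189. For gapdh and Sucsyn it was lowest in SB189 (-0.065 ± 0.0952 and 2.25 ± 0.143), with 0.0020 and 2.43 in SB80. Other lines had similar values, with 0.019 ± 0.199 for actin in SB53 and 0.0020 for gapdh in SB146. For Sucsyn, SB15 gave 2.43 and SB146 gave 2.35 ± 0.194. The part of these controls in the division was not tested. In other clusters, 0 probe sets followed the pair of Ta.14571 and 0 that of Ta.14543, while 3 and 4 followed the pairs of Ta.22966 and 10 that of Ta.8740. The annotated followers of Ta.24806 were 6 probe sets of 5 genes. TBP1, a TATA-binding protein that places the transcription machinery at promoters, gave 7.86 in SB80 and 8.08 in SB189 against 8.58 to 8.72 in the other lines. LOC780602 gave 5.27 and 6.17 against 8.27 to 8.83. LOC542912 ran the other way, at 8.70 and 8.77 against 7.99 to 8.18. LOC780596 on its brighter probe set gave 11.39 and 11.18 against 11.57 to 11.68. The fifth gene was LOC606345, on Ta.5796.2.A1_at.

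**Figure D4:**
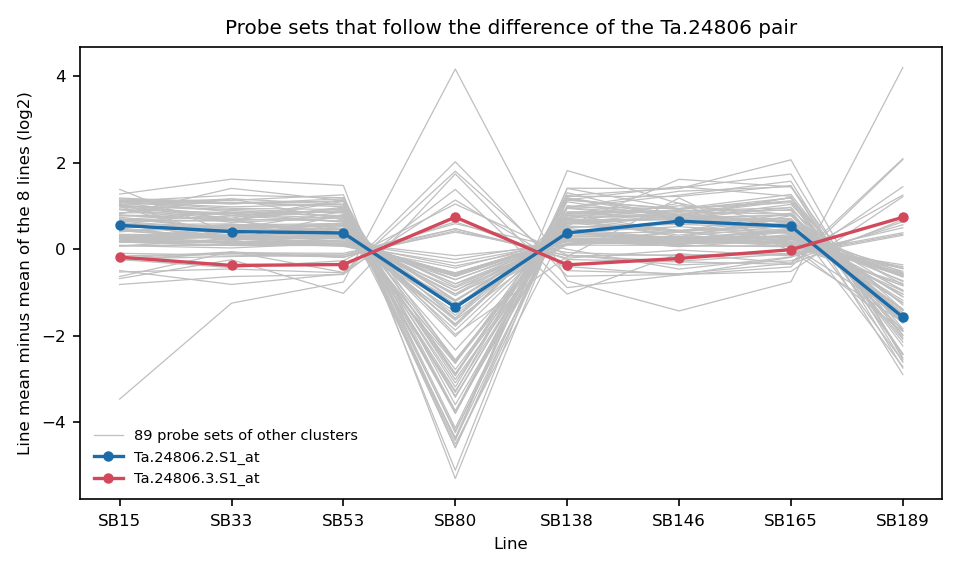
Line mean minus the mean of the 8 lines (log2, y axis) in each line (x axis) for both probe sets of Ta.24806 (coloured, with points) and for the 89 probe sets of other clusters that followed their difference (grey). SB80 and SB189 stand apart from the other 6 lines in all of them, below in 76 and above in 13.

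The pair nearest to the rule from outside was that of LOC606345, Ta.5796.2.A1_at with Ta.5796.3.S1_a_at, at r = -0.77. Ta.5796.2.A1_at gave 5.18 and 4.57 in SB80 and 5.16 and 5.34 in SB189, and lay between 6.85 and 7.53 on all other arrays. Ta.5796.3.S1_a_at swung by only 0.57 between line means, from 10.14 ± 0.0192 in SB146 to 10.72 ± 0.0635 in SB80 (SD, n = 2), and its arrays in SB189 (10.48 and 10.54) were above the 10.07 to 10.44 of the other lines by 0.046. Next was Ta.1763.1.S1_x_at with Ta.1763.2.S1_at at -0.74. SB80 stood alone as lowest on Ta.1763.1.S1_x_at (9.17 and 9.44, against 10.28 to 11.26 elsewhere), while on Ta.1763.2.S1_at its 7.68 and 7.69 lay beside the 7.45 and 7.54 of SB138. The third was Ta.1422.2.S1_at with Ta.1422.3.S1_a_at at -0.73. In SB80 Ta.1422.2.S1_at lay at the floor on both arrays, at 2.25, with 4.88 and 4.73 in SB189 and 6.59 to 7.37 elsewhere, so its range of 4.80 is a lower bound. On Ta.1422.3.S1_a_at, SB80 (6.62 and 7.21) and SB189 (6.41 and 6.76) were high, and the highest other array was 6.34 in SB146.

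**Figure D5:**
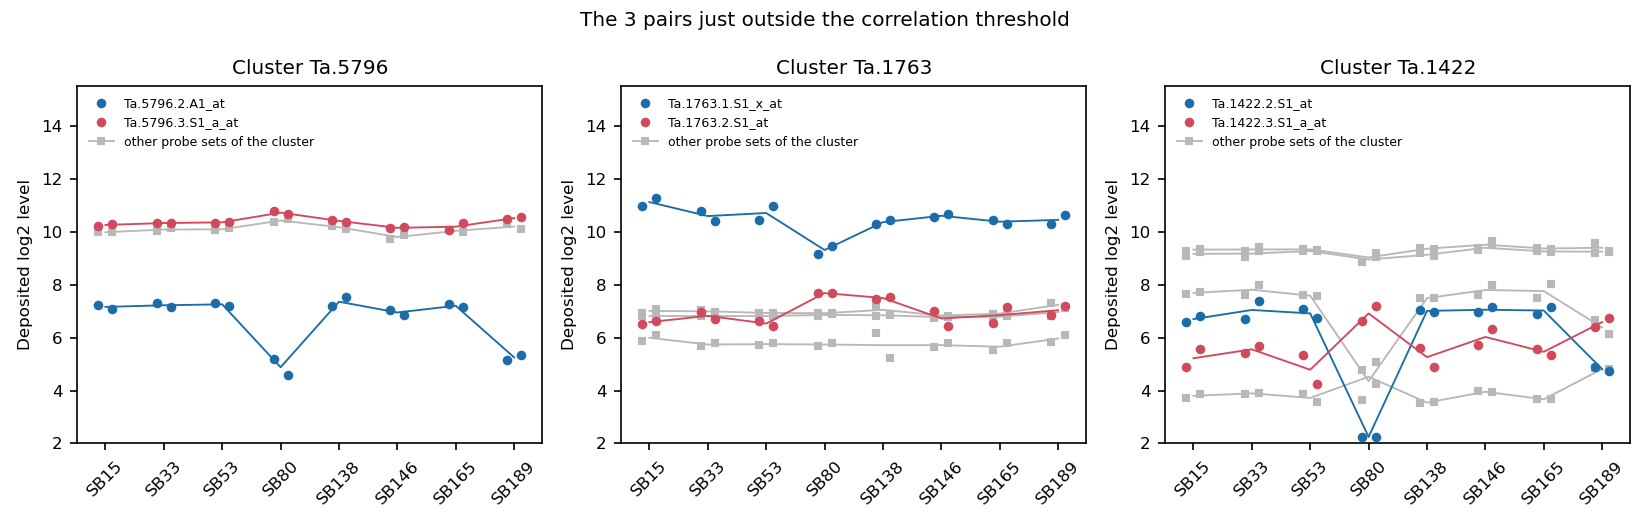
Deposited log2 level (y axis) in each line (x axis) for the 3 pairs just outside the correlation threshold (coloured), with the other probe sets of their clusters in grey, 1 point per array and lines joining line means. SB80 is the lowest line on 1 probe set of each pair and the highest on the other.

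The 3 pairs just inside the threshold were those of Ta.14543 (-0.80), Ta.8740 (-0.83) and Ta.22966.2.S1_at with Ta.22966.3.S1_at (-0.85). Over the 8 line means, the 3 outside pairs reached -0.81, -0.84 and -0.83.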

How the data were processed

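The deposited values are log2 levels per probe set for 16 arrays. Of RMA and GCRMA, both named in the submitters' processing notes without versions, which made the table is not stated. Both correct background, normalize arrays and summarise probes. Of 61290 probe sets, 175 controls were left out. Pairs were found in Python 3.11.15 with numpy 2.4.6 and pandas 2.3.3. The 8 lines were compared by a moderated F (limma 3.58.1, R 4.3.3) and the field replicates by a contrast with line as a block, both over 61115 probe sets with Benjamini-Hochberg adjustment and a threshold of 0.05. Both steps were run on simulated data with normal noise and planted differences, which do not match the line splits and the floor of these data. Pairs were named by the rule that takes the 10 pairs with the largest smaller range, the 3 just inside and the 3 just outside the r threshold, annotated members and clusters with 3 or more members, so all 6 pairs are named. The members, lists and rules were chosen with earlier results of these data known. Genes came from the platform annotation, which pairs 1273 probe sets with a gene, updated through RefSeq for the IWGSC CS RefSeq v2.1 assembly. Markers were searched in symbols and synonyms, since the tables hold no descriptions. Alternatives changed the normalization, the thresholds, the correlation, the arrays and the lines used. The number of arrays limits the precision.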

Additional observations from a re-analysis of the deposited data

How the results depend on the processing

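With all other settings kept, the number of pairs open to the rule changed in some runs from 1146. The rule gave 3 pairs (5 probe sets) of 868 open to it at a mean of 6 or more. At a range of 1 or more it gave 4 pairs (7 probe sets) of 209. Without _x_at and _s_at probe sets it gave 3 pairs (6 probe sets) of 413. On field replicate 2 alone it gave 12 pairs (23 probe sets) of 1880. With the same 1146 open, there was 1 pair (2 probe sets) at r of -0.9 or less and 9 pairs (17 probe sets) at -0.7 or less. Over line means there were 12 pairs (22 probe sets), and by Spearman's rho 0 pairs (0 probe sets). Without 1 array there were 4 to 6 pairs and 7 to 11 probe sets. The pair of Ta.14543 fell outside in 7 of 16 such runs, without SB33, SB138, SB146 or SB165, and with array medians subtracted, which left 5 pairs. The pair of Ta.8740 fell outside without replicate 2 of SB138 or of SB146, and without SB146. Those of Ta.14571, Ta.22966 and Ta.24806 held without any 1 array and without any 1 line. No r of a pair changed sign in the 29 to 34 settings in which that pair had an r. Ta.8740, with the fewest, had none where it missed the mean or range minimum. Of the 11 probe sets, limma called 7 to 10 without 1 array and 6 without SB80. When only the 19740 probe sets with a mean of 5 or more were fitted, it called 2939 of them, with all 11 included. Over all probe sets it called 1401 without SB80 and 2447 to 3818 without 1 array, with more than 1.5 times the 2137 without replicate 1 of SB53, SB80, SB138 or SB189 (3325, 3426, 3433 and 3818). Deviations of replicate 1 arrays from their line means had an r of -0.21 to 0.38 between lines, with a median of 0.14. Whether equal replicate numbers of different lines share a field effect was not tested further. With the replicate block there were 6 pairs, 7 of the 11 called and 1986 calls in all.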
